A study of Mus musculus with 26 samples.

Results

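The genes described here are 10 components of the transforming growth factor beta (TGF-beta) pathway, read in haematopoietic stem cells (HSCs) of a mouse model of myeloproliferative neoplasm. They were chosen by symbol from the 23416 genes of the expression table: the ligands Tgfb1 and Tgfb3, the receptors Tgfbr1, Tgfbr2 and Tgfbr3, the signal transducers Smad2, Smad3 and Smad4, the inhibitory Smad7, and Skil, a corepressor of Smad complexes. All 10 were in the table, and all 10 passed the filter on low values, which kept 12116 genes with at least 1 RPKM (a read count divided by gene length and library total) in at least 5 libraries. HSCs were purified from bone marrow by cell sorting and amplified by Smart-Seq2, a full-length cDNA method for small cell numbers. The 4 groups were the double mutant, which carries JAK2V617F together with Ezh2 loss and is spelled JAK2V17F + Ezh2 loss in the labels (n = 7 libraries), JAK2V617F (n = 7), Ezh2 loss (n = 7) and control, described as WT (n = 5). JAK2V617F is an activating mutation of the JAK2 kinase, and Ezh2 is the Polycomb enzyme that methylates histone H3 at lysine 27. Age, strain, the driver that deletes Ezh2 and the number of cells per library are not given in these sources. The labels do not say whether libraries of a group are from different mice, so the tests gauge spread among libraries, which may be technical.

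TGF-beta ligands are secreted in a latent form and, once released, bind the type II receptor Tgfbr2, which recruits and phosphorylates the type I receptor Tgfbr1. Tgfbr1 then phosphorylates Smad2 and Smad3, which pair with Smad4 and regulate genes in the nucleus, while Smad7 and Skil restrain the pathway. In bone marrow, TGF-beta is known for holding HSCs in quiescence and for driving fibrosis in myeloproliferative neoplasms.

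The libraries carry titles of different styles, with a number before the group code (number-first, 15 libraries) or after it (number-last, 11 libraries). Number-first libraries made up 7 of 7 in the double mutant, 2 of 7 in JAK2V617F, 2 of 7 in Ezh2 loss and 4 of 5 in control, so title style was fitted beside genotype in every comparison. With no number-last double mutant, its comparisons take the title style difference from the other groups and assume that it is equal in all genotypes. That cannot be checked in the double mutant. What the title style stands for is not stated in these sources. The reads behind the RPKM values were recovered from their whole-number steps and ran from 7.8 to 29.2 M per library (M for 10 to the power of 6), with medians of 19.4 M in number-first and 11.3 M in number-last libraries. Ezh2 had medians of 15.1 RPKM in the double mutant (6.71 to 31.4) and 15.4 RPKM in Ezh2 loss (5.15 to 31.4), against 29.5 RPKM in control (8.11 to 33.2), so the medians were lower with Ezh2 loss while the ranges overlapped. In JAK2V617F it ranged from 20.4 to 40.2 RPKM. Jak2 was detected in every library, and the mutation itself cannot be read from gene-level values. Of 9 HSC markers, Procr lay between 58.9 and 222 RPKM in all libraries, whereas Fgd5 went down to 0 in the double mutant and 0.0483 RPKM in JAK2V617F, and Tek to 0.389 RPKM in JAK2V617F. The 9 summed to 1000 to 1610 RPKM in number-first and 749 to 1180 RPKM in number-last libraries. The summed level of 6 neutrophil markers ranged from 3.51 to 12700 RPKM in the double mutant, from 6.98 to 5110 in JAK2V617F, from 53.4 to 8740 in Ezh2 loss and from 0 to 48.8 in control. In such pooled libraries, fewer cells of a type and less RNA per cell cannot be told apart.

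Tgfb1, the ligand most expressed in haematopoietic cells, was either abundant or nearly missing, and every genotype held libraries of both kinds. It was at 31.5, 53.1, 2.62, 1.29, 48.8, 1.55 and 1.89 RPKM in the 7 double-mutant libraries. The JAK2V617F libraries had 48.5, 0, 53.4, 0, 0, 0.0535 and 0 RPKM, and the Ezh2 loss libraries 1.15, 0.593, 37.2, 56.5, 3.05, 0.315 and 0.0367 RPKM. The control libraries had 35.5, 62.7, 34.5, 21.2 and 1.61 RPKM. The level was thus at least 21.2 RPKM in 11 libraries and at most 3.05 RPKM in the other 15, with no library between them. All 11 high libraries were number-first, and each genotype held at least 2 of them. All 11 number-last libraries were low, control replicate 5 among them. The remaining 4 low libraries were double mutants with number-first titles.

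In reads, the 11 high libraries held 840 to 2946 Tgfb1 reads each, against at most 113 in the low ones. In the number-last libraries the highest count was 50 reads, and 4 JAK2V617F libraries had 0 reads, which at their depths allows up to 0.0886 to 0.17 RPKM (a floor of 3 reads, counting error only). Smart-Seq2 reads carry no molecular identifiers here, so reads are not independent molecules. Total depth was 14.2 to 29.2 M reads in number-first and 7.8 to 18.2 M in number-last libraries.

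Tgfb1 lies on chromosome 7 (GRCm38, 25687002 to 25705077, plus strand), with no annotated gene overlapping its exons. The 300 bases around its start, from 250 before it to 50 after it (RefSeq, GRCm38.p6, chr7:25686752-25687051, plus strand), are shown because Tgfb1 carries the largest difference among the 10 genes. Capitals mark the GC box, GGGCGG on either strand, a binding motif of Sp1-family factors.
Tgfb1: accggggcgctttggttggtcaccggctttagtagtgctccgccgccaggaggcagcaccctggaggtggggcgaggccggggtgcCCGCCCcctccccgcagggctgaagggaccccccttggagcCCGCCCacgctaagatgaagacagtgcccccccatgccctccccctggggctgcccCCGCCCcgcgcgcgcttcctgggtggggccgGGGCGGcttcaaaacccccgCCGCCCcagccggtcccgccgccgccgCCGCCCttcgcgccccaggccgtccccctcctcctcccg
This window held 6 GC boxes, against at least 1 in 35.7% of the 32851 promoters in the RefSeq table. Its GC content of 77.0% was above that of 97.6% of those promoters, whose median was 52.7%. It held no TATAAA and no CAGAC on either strand. CAGAC holds the core letters bound by Smad3 and Smad4, and 49.6% of all promoters contain it. Of the members, 4 had an entry that could be shown, and among the others the Smad3 window held 2 GC boxes, the Tgfbr2 window 1 CAGAC, and Tgfbr1, listed with 2 windows, 2 GC boxes in the one and 1 CAGAC in the other. These matches describe letters and not binding.

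**Figure D1:**
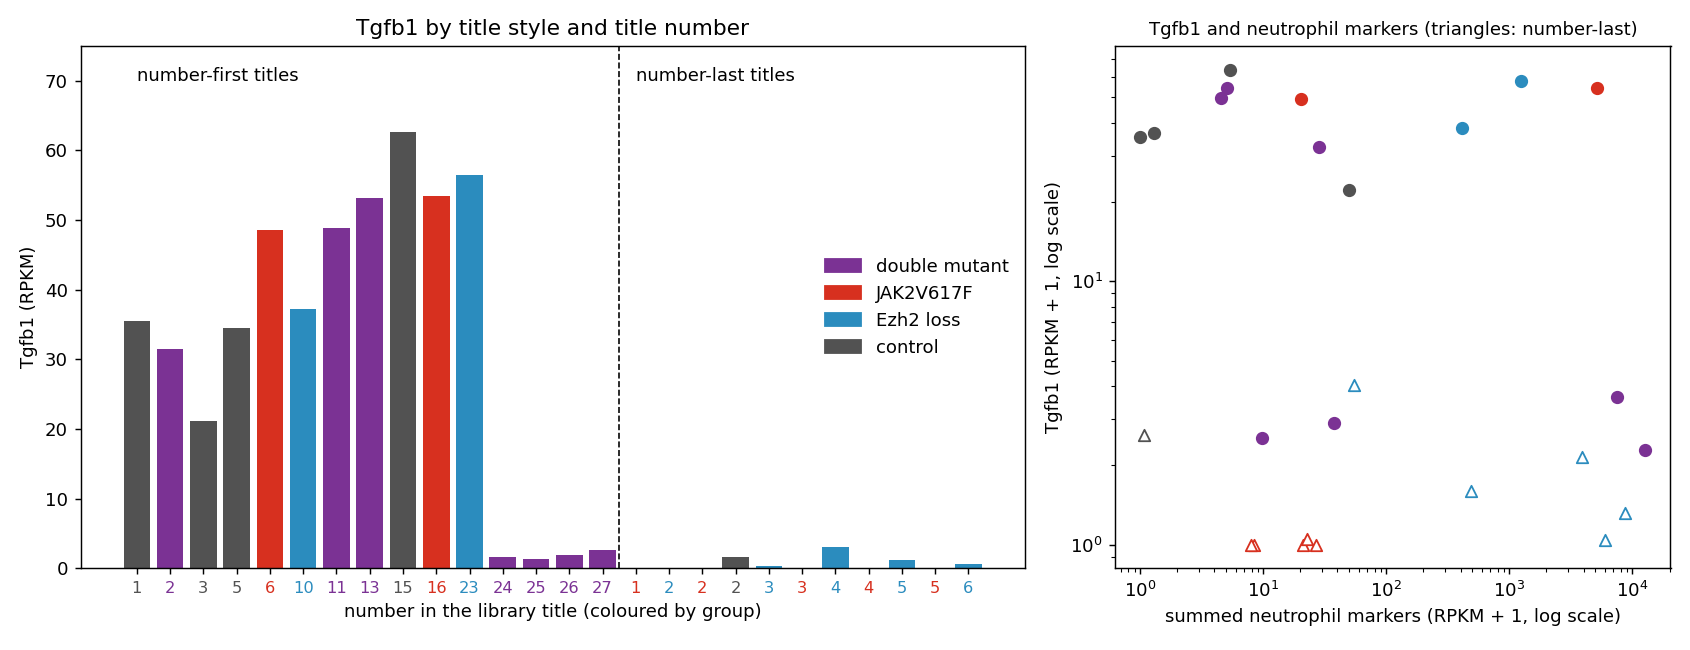
Left, Tgfb1 in RPKM in each of the 26 libraries, number-first titles before the dashed line and number-last titles after it, ordered by the number in the title and coloured by group. Right, the same values against the summed level of 6 neutrophil markers, both as RPKM + 1 on log axes, with circles for number-first and triangles for number-last titles; high Tgfb1 values end at title number 23, and the 4 double-mutant libraries numbered 24 to 27 sit between 1.29 and 2.62 RPKM.

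With group means fitted, Tgfb1 was higher in number-first than in number-last libraries, by 4.89 on the log2(RPKM + 1) scale. The SE was 0.62 and the adjusted p = 1.4e-06 by limma, with Benjamini-Hochberg adjustment over 12116 genes. This estimate comes from JAK2V617F, Ezh2 loss and control, the last with 1 number-last library. The double mutant, all number-first, does not enter the estimate, here or for any other gene. The medians, with the double mutant included, were 35.5 RPKM in number-first and 0.0535 RPKM in number-last libraries. The size depends on the constant added before the logarithm, being 6.79 with 0.1 RPKM, 3.15 with 5 RPKM and 7.91 in a voom fit on the recovered reads, and it kept its call in each. Many genes differed by title style, with 1331 of 12116 (11.0%) past the threshold, 931 higher and 400 lower in number-first libraries. The median shift over all genes was 0.17. Of the 10 members 2 passed, Tgfb1 upward and Skil downward, and the median over the members was 0.47. A share of 2 in 10 from so short a list is close to that background.

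Between genotypes Tgfb1 did not pass in any comparison. The fitted difference was -2.22 for double mutant minus control (95% interval -3.67 to -0.77, adjusted p = 0.531), -1.94 for double mutant minus JAK2V617F (adjusted p = 0.492) and -2.49 for double mutant minus Ezh2 loss (adjusted p = 0.381). These values rest on the 4 double-mutant libraries numbered 24 to 27, which had 1.29 to 2.62 RPKM against 21.2 to 62.7 RPKM in the other 11 number-first libraries of all groups. Without those 4 libraries, an exclusion chosen after the values were seen, double mutant minus control was 0.058 (adjusted p = 0.998), double mutant minus JAK2V617F was 0.34 and double mutant minus Ezh2 loss was -0.21. For double mutant minus control the lowest adjusted p by limma was 0.37 over the 15 other settings and 0.25 with 1 library left out. Without the title style term, double mutant minus JAK2V617F turned to 1.55 and double mutant minus Ezh2 loss to 1.0. In number-first libraries alone, which need no such term, double mutant minus control was -2.01 (adjusted p = 0.736 by limma). In the same libraries double mutant minus JAK2V617F was -2.5 (adjusted p = 0.755) and double mutant minus Ezh2 loss -2.36 (adjusted p = 0.512). For Ezh2 loss minus JAK2V617F, groups with the same mix of title styles, the difference was 0.55 (95% interval -0.75 to 1.86, adjusted p = 0.878). Number-last libraries were all low in both groups, at 0.0367 to 3.05 RPKM in Ezh2 loss and 0 to 0.0535 RPKM in JAK2V617F. In reads these were 21, 14, 50, 12 and 1 in Ezh2 loss, and 0 or 1 in JAK2V617F, a difference that was not tested by itself.

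Neutrophil markers were high in some and low in others of the 4 double-mutant libraries with low Tgfb1. These libraries had summed neutrophil markers of 7420, 12700, 8.69 and 36.8 RPKM in replicates 3, 4, 6 and 7, and the 3 libraries with high Tgfb1 had 27.2, 4.02 and 3.51 RPKM. Tgfb1 was at 53.4 RPKM in a JAK2V617F library with 5110 RPKM of neutrophil markers. With the neutrophil list as a covariate, double mutant minus control was -1.70, double mutant minus JAK2V617F -1.82 and double mutant minus Ezh2 loss -3.08 (adjusted p = 0.123). With megakaryocyte and platelet markers as the covariate the same values were -2.10, -1.92 and -2.41. Megakaryocyte and platelet markers, from a lineage rich in Tgfb1, summed to 290 to 477 RPKM in the 4 low and to 177 to 214 RPKM in the 3 high double-mutant libraries. In the 8 high libraries of the other groups the same markers summed to 185 to 353 RPKM, a range that overlaps both.

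By the rule on likeness, the 3 genes whose values followed Tgfb1 most closely after group and title style means were removed were Serinc3 (residual Pearson r = 0.89 over 26 libraries), H1fx (0.89) and Ppp2ca (0.88), given as a description. H1fx, a linker histone gene, repeated the split, at 0.459 to 2.38 RPKM in the 4 libraries numbered 24 to 27, 24.1 to 69 RPKM in the other number-first libraries and 0.215 to 3.40 RPKM in number-last libraries. Ppp2ca, a catalytic subunit of protein phosphatase 2A, was at 12.4 to 41.8, 192 to 277 and 37.1 to 106 RPKM in the same sets. Serinc3, a membrane protein gene, was at 115 to 169, 708 to 948 and 459 to 676 RPKM. The residuals that chose these genes include the gap between the libraries numbered 24 to 27 and the other double mutants, so their sharing of it is part of the choice. Lower values in these 4 libraries than in every other number-first library occurred in 194 of 12116 genes (1.60%), and in Tgfb1 alone of the 10 members. The set was marked out by its low Tgfb1, so the place of Tgfb1 among these genes was fixed by the choice.

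Tgfb3, the other ligand, was all or none. It had 80 to 133 reads in 5 libraries and 0 reads in the other 21. By the floor of 3 reads, which covers counting error only, 0 reads allows up to 0.0303 to 0.113 RPKM there. It was at 1.99 RPKM in 1 double-mutant library, at 2.15 RPKM in 1 JAK2V617F library, at 0 in all 7 Ezh2 loss libraries, and at 2.35, 1.17 and 1.81 RPKM in 3 control libraries. All 5 libraries with reads were number-first. The fitted differences from control were -0.76 in the double mutant, -0.34 in JAK2V617F and -0.58 in Ezh2 loss, and none passed (adjusted p = 0.803, 0.999 and 0.908 by limma). Values fitted to so many zeros depend on the added 1 RPKM and are no bound. Exons of Tgfb3 (chromosome 12, 86056745 to 86079041, minus strand) are overlapped on the opposite strand by the predicted genes Gm37804 and Gm48008, and strand use in counting is not stated in these sources, so reads from either strand cannot be told apart.

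**Figure D2:**
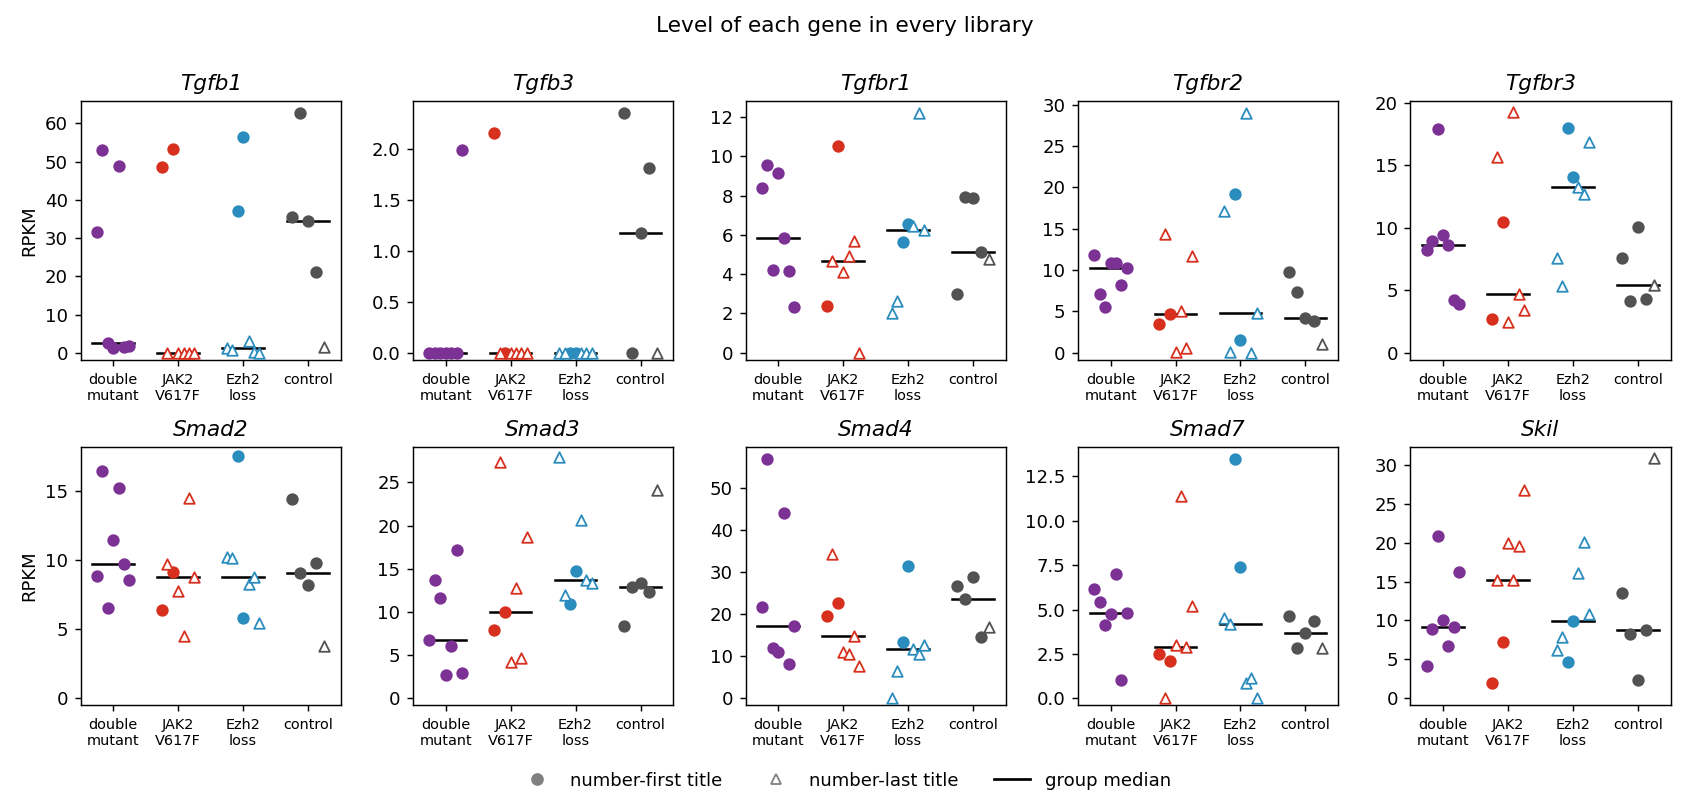
RPKM of the 10 genes in every library, by group, with filled circles for number-first titles, open triangles for number-last titles and a bar at the group median; each panel has its own axis. Tgfb1 separates into high and low libraries within every group, Tgfb3 has 5 values above 0, and the other 8 genes overlap between all groups.

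The type I receptor Tgfbr1 was present in 25 of 26 libraries and differed little between groups. It ranged from 2.32 to 9.55 RPKM in the double mutant (median 5.82), 0 to 10.5 in JAK2V617F (4.69), 2.04 to 12.2 in Ezh2 loss (6.27) and 2.98 to 7.91 in control (5.13). The library at 0, a number-last JAK2V617F library, could hide up to 0.0627 RPKM by counting error alone. Double mutant minus control was -0.02 with a 95% interval of -1.05 to 1.02, so changes of about 1 log2 unit in either direction lie at the edge of what these libraries allow.

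The type II receptor Tgfbr2 had its lowest coefficient of variation in the double mutant, where all titles are number-first and the 7 values were 11.8, 7.14, 5.51, 10.8, 10.9, 8.18 and 10.2 RPKM (25.1%). The JAK2V617F libraries had 3.49, 14.4, 4.74, 0.113, 5.05, 0.585 and 11.7 RPKM (94.4%). The Ezh2 loss libraries had 17.2, 0.0556, 19.2, 1.60, 29.0, 0 and 4.79 RPKM (112%). The control libraries had 9.72, 7.38, 4.18, 3.90 and 1.03 RPKM (64.2%). Every double-mutant value lay inside the range of Ezh2 loss, and the difference in spread was not tested. The values under 1 RPKM, in 2 JAK2V617F and 2 Ezh2 loss libraries, were all number-last and rested on 0 to 25 reads. Double mutant minus control was 0.75 (95% interval -0.82 to 2.32), the widest interval among the receptors.

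Tgfbr3, also called betaglycan, a coreceptor that presents ligand to Tgfbr2, had its highest median in Ezh2 loss, at 13.3 RPKM (range 5.32 to 18.0). The medians were 8.59 RPKM in the double mutant (3.93 to 17.9), 4.66 in JAK2V617F (2.47 to 19.3) and 5.40 in control (4.11 to 10.1). It ranked first of the 10 members by p in Ezh2 loss minus control, at 0.95 (SE 0.52, 95% interval -0.12 to 2.02), and did not pass (adjusted p = 0.857). The direction was the same under all 15 other settings tried, with values of 0.54 to 1.25, and without any 1 library, with values of 0.79 to 1.11. In Ezh2 loss minus JAK2V617F it was at 0.78 (SE 0.43, adjusted p = 0.657). The number-first libraries alone held 18.0 and 14.1 RPKM in Ezh2 loss against 4.11 to 10.1 RPKM in control, sets that did not overlap, as was the case, with Ezh2 loss higher, for Smad7 and in all for 794 of 12116 genes (6.55%). The number-last libraries held 5.32 to 16.9 RPKM in Ezh2 loss and 5.40 RPKM in the 1 control, so the groups overlapped there. In Ezh2 loss minus control as a whole, 0% of the tested genes passed. Erythroid markers (6 genes) summed to 4.01 to 395 RPKM in Ezh2 loss, with 12.4 and 12.5 RPKM in its number-first libraries, against at most 8.24 RPKM in each other group; their part in the Tgfbr3 values was not tested. A predicted gene on the same strand, Gm43422, overlaps its exons. The genes closest to it by residual correlation were Mgea5 (0.80), Cdc27 (0.75) and Sec63 (0.71).

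Smad2 and Smad3, the transducers phosphorylated by Tgfbr1, were present in all 26 libraries. Smad2 was even across groups, with medians of 9.71 RPKM in the double mutant, 8.76 in JAK2V617F, 8.75 in Ezh2 loss and 9.07 in control, and a range over all libraries of 3.76 to 17.5 RPKM. Double mutant minus control was 0.23 (95% interval -0.54 to 0.99). Smad3 had medians of 6.74 RPKM in the double mutant (2.75 to 17.2), 9.94 in JAK2V617F (4.23 to 27.4), 13.7 in Ezh2 loss (10.9 to 27.9) and 12.9 in control (8.32 to 24.1). It stood at -0.70 in double mutant minus control (SE 0.45, adjusted p = 0.903) and -0.65 in double mutant minus Ezh2 loss (SE 0.50, adjusted p = 0.788). Neither passed, and the 7 double-mutant values overlapped both other groups.

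Smad4, the shared partner of the receptor-activated Smads, had the highest median of the 10 genes over all libraries, 14.7 RPKM, on a scale that is per length of gene. Its medians were 17.3 RPKM in the double mutant (8.17 to 57.1), 14.8 in JAK2V617F (7.58 to 34.3), 11.7 in Ezh2 loss (0 to 31.6) and 23.6 in control (14.6 to 28.8). The largest values, 57.1 and 44.2 RPKM, were in double-mutant libraries with high Tgfb1. Double mutant replicate 1, also high in Tgfb1, had 21.7 RPKM of Smad4. The 4 double-mutant libraries numbered 24 to 27 had 8.17 to 17.3 RPKM, against 13.5 to 57.1 RPKM in the other number-first libraries. After Tgfb1 and Skil it had the smallest p for title style, at 0.97 (SE 0.49, adjusted p = 0.235), and did not pass. In Ezh2 loss minus JAK2V617F it was at -0.79 (SE 0.51, adjusted p = 0.724), including a number-last Ezh2 loss library with 0 reads. Its closest genes by residual correlation were Bod1 (0.82), Poldip3 (0.80) and Lsm14a (0.80).

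Smad7, the inhibitory Smad that blocks Tgfbr1 and is itself induced by TGF-beta signalling, was narrow in control and wide in the single mutants. It ranged from 1.03 to 7.02 RPKM in the double mutant (median 4.8), 0 to 11.4 in JAK2V617F (2.90), 0 to 13.5 in Ezh2 loss (4.18) and 2.81 to 4.63 in control (3.70). The 2 libraries at 0, a JAK2V617F and an Ezh2 loss library, were number-last. In Ezh2 loss the 2 number-first libraries had 13.5 and 7.41 RPKM and the 5 number-last ones 0 to 4.51 RPKM. In JAK2V617F the 2 number-first libraries had 2.09 and 2.5 RPKM and the 5 number-last ones 0 to 11.4 RPKM. Of the 5 control libraries 4 were number-first, and the difference in spread was not tested. The fitted differences from control were 0.07 in the double mutant, 0.15 in JAK2V617F and 0.15 in Ezh2 loss, and the 95% interval in the double mutant was -1.12 to 1.25.

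Skil, which encodes SnoN, a corepressor that binds Smad complexes and is degraded when the pathway is active, was lower in number-first libraries. Its medians, with the double mutant included, were 8.82 RPKM in number-first and 16.1 RPKM in number-last libraries. The fitted difference, estimated from the other groups, was -1.46 (SE 0.39, adjusted p = 0.0131 by limma). The ranges overlapped, at 1.94 to 20.8 RPKM in number-first and 6.15 to 30.9 RPKM in number-last libraries. Within JAK2V617F they did not overlap, at 1.94 and 7.27 RPKM in number-first and 15.2 to 26.8 RPKM in number-last libraries, a separation in this direction that 701 of 12116 genes (5.79%) showed. Within Ezh2 loss they did, at 4.66 and 9.98 RPKM in number-first and 6.15 to 20.1 RPKM in number-last libraries. The number-first controls had 2.4 to 13.5 RPKM and the single number-last control library 30.9 RPKM. The call was lost without either of 2 libraries, although the other settings kept it with adjusted p between 0.00535 and 0.0202. Without control replicate 5 the difference was -1.32 (adjusted p = 0.0713), and without JAK2V617F replicate 1 it was -1.15 (adjusted p = 0.0819).

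Between genotypes Skil did not pass. Double mutant minus Ezh2 loss was 1.04 (SE 0.49, 95% interval 0.03 to 2.05, adjusted p = 0.624), with values of 4.10 to 20.8 RPKM in the double mutant and 4.66 to 20.1 RPKM in Ezh2 loss. The interaction (double mutant plus control, minus JAK2V617F and minus Ezh2 loss) was 1.48 (SE 0.77, adjusted p = 0.83). Without the title style term the same values were -0.0039 and -0.32. In number-first libraries alone they were 0.45 and 1.18. Without the libraries numbered 24 to 27, an exclusion chosen after the values were seen, they were 0.49 and 0.92. Double mutant minus JAK2V617F went from 0.73 to 0.18 with the same exclusion. Skil was at 9.14 to 20.8 RPKM in those 4 libraries and at 1.94 to 13.5 RPKM in the other number-first libraries, ranges that overlap. Its closest genes by residual correlation were Actr2, Set and Twf1 (0.81 each), the first and last of which encode regulators of actin.

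**Figure D3:**
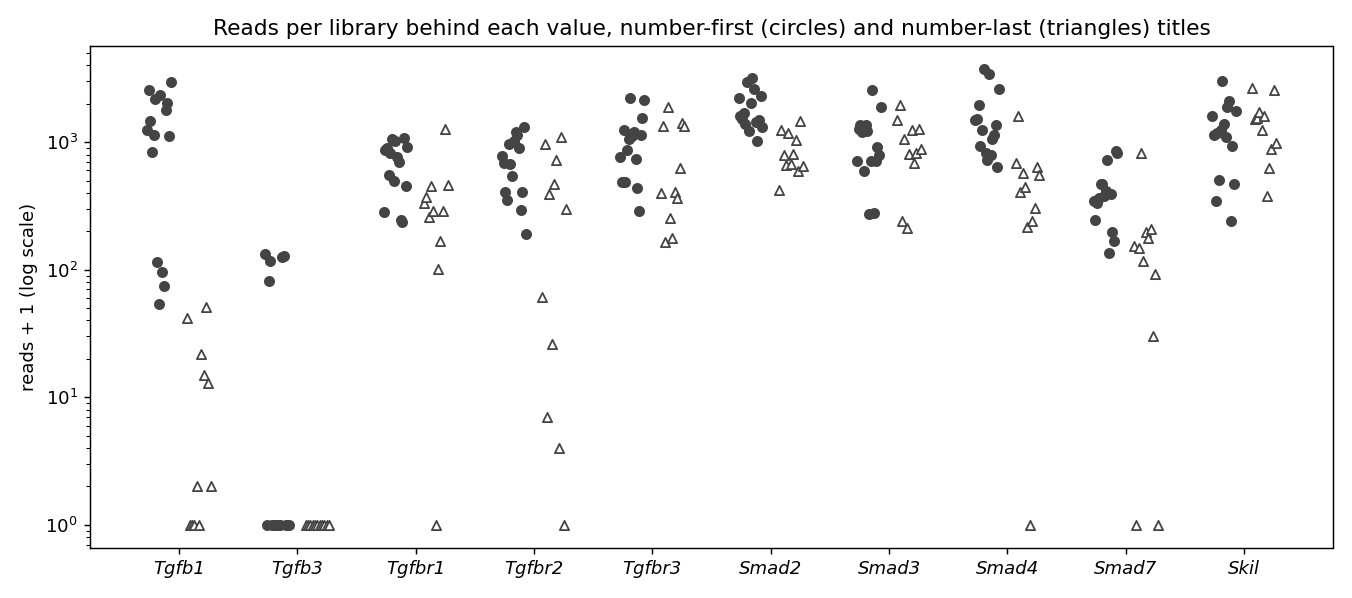
Reads plus 1, on a log axis, behind the value of each gene in each library, with circles for number-first and triangles for number-last titles. Tgfb1 has 840 to 2946 reads in its 11 high libraries and at most 113 elsewhere, Tgfb3 has either 80 to 133 reads or 0, and Smad2, Smad3, Tgfbr3 and Skil have at least 165 reads in all libraries.

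Across genotype comparisons, none of the 10 genes passed an adjusted p of 0.05 by limma, and none did by voom. In double mutant minus control 0 members passed, beside 1 of 12116 genes (0.00825%). At an unadjusted p under 0.05 stood 2 members, Tgfb1 and Tgfb3, and 748 genes (6.17%). The median over the members was 0.03 and that over all tested genes -0.007. In JAK2V617F minus control 0 members passed, beside 0% of genes, and the 3 smallest p belonged to Smad3 (-0.60, SE 0.49), Skil (-0.44, SE 0.49) and Tgfb3 (-0.34, SE 0.40), each with adjusted p = 0.999. Unadjusted, 0 members and 501 genes stood under 0.05. The members' median was -0.11, with 5 above and 5 below 0. In Ezh2 loss minus control 0 members passed, beside 0% of genes, after Tgfbr3 came Skil (-0.75, SE 0.49, adjusted p = 0.907) and Tgfb3, and the members' median was 0.16. Unadjusted, 0 members and 736 genes stood under 0.05.

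The double mutant was also set against each single mutant. In double mutant minus JAK2V617F 0 members passed, beside 4 genes (0.0330%), with Tgfb1 under an unadjusted p of 0.05 among 977 genes. Skil was at 0.73 (SE 0.49, adjusted p = 0.773) and Tgfb3 at -0.41 (SE 0.40, adjusted p = 0.866). In double mutant minus Ezh2 loss 0 members passed, beside 0% of genes, with Tgfb1 and Skil under an unadjusted p of 0.05 among 950 genes. In Ezh2 loss minus JAK2V617F 0 members passed, beside 12 genes (0.0990%), and the members ranged from -0.79 for Smad4 to 0.78 for Tgfbr3. Unadjusted, 0 members and 1002 genes stood under 0.05. For the interaction 0 members passed, beside 0% of genes, after Skil came Tgfb1 (-2.21, SE 1.22, adjusted p = 0.83) and Tgfbr3 (-0.80, SE 0.83, adjusted p = 0.922), and 0 members and 738 genes stood under an unadjusted p of 0.05. Comparisons against the same group share its libraries.

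**Figure D4:**
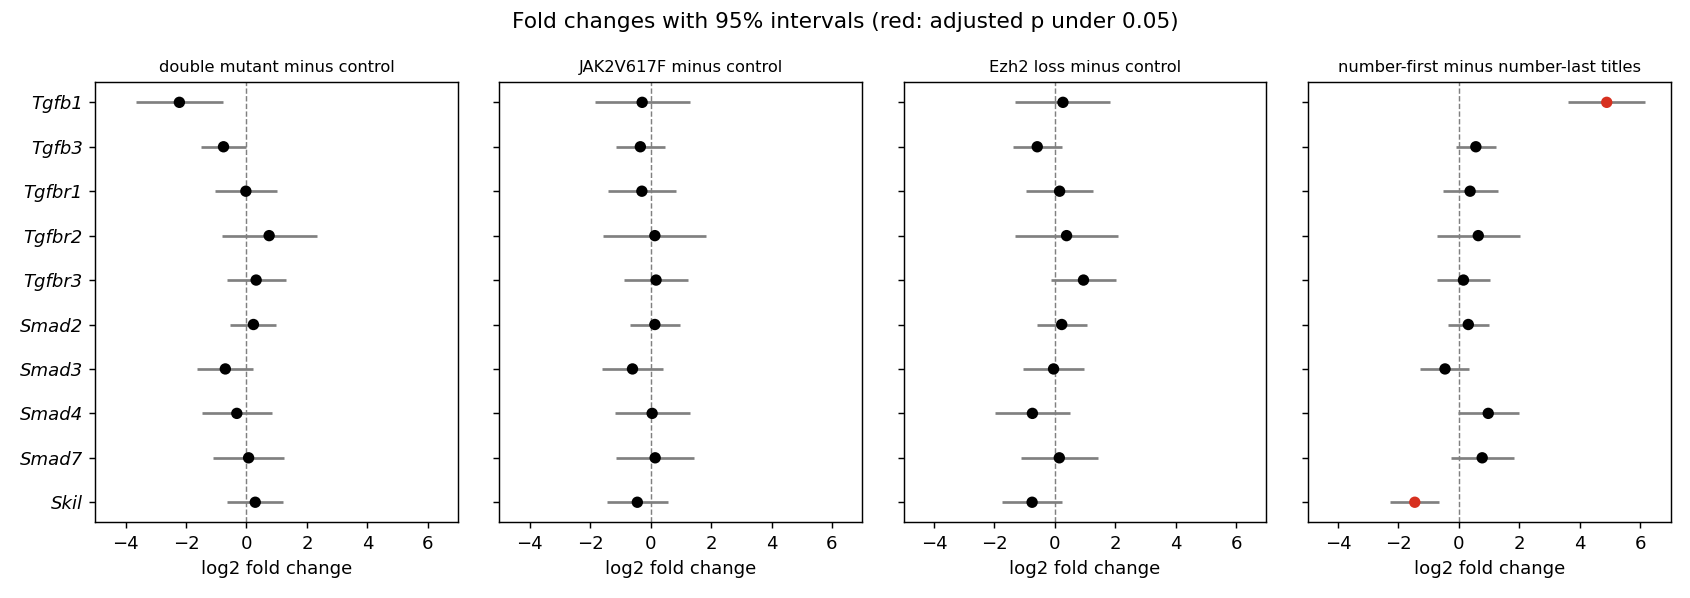
Log2 fold changes of the 10 genes with 95% intervals for each mutant group minus control and for number-first minus number-last titles, from 1 limma fit. Red points, Tgfb1 at 4.89 and Skil at -1.46 in the panel of title styles, have an adjusted p under 0.05; no point of the genotype panels does.

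Members did not move as a block across libraries. After removal of group and title style means, the highest residual correlations over 26 libraries were 0.47 for Tgfbr1 with Tgfbr3, 0.46 for Tgfbr1 with Smad4 and 0.44 for Tgfb1 with Smad4, and the lowest was -0.44 for Tgfb3 with Tgfbr1. Tgfbr1 and Tgfbr2, which form the signalling receptor together, stood at -0.27. These are descriptions over libraries that share amplification and depth.

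Of 46 further genes of the pathway (latent ligand carriers, other receptors of the family, Smads of the bone morphogenetic protein branch, ubiquitin ligases and corepressors), 45 were in the table and 39 were tested. In every genotype comparison 0 of the 39 passed, and for title style 0 of the 39, beside 11.0% of all genes. In double mutant minus control 19 were above and 20 below 0 with a median of -0.01, and the smallest p belonged to Thbs1, an activator of latent TGF-beta (-1.73, SE 0.91, adjusted p = 0.853), and Eng, the coreceptor endoglin (0.52, SE 0.29, adjusted p = 0.876). The means of these genes are given by group with title style unfitted, while the differences have it fitted. Mean Thbs1 was 1.12 RPKM in the double mutant and 6.25 RPKM in control. Mean Eng was 106 RPKM in the double mutant, 43.5 in JAK2V617F and 68.8 in control, and double mutant minus JAK2V617F was 0.81 (SE 0.32, adjusted p = 0.47). Trim33, a ubiquitin ligase of Smad4, had means of 8.46 RPKM in JAK2V617F and 2.14 RPKM in control (1.33, SE 0.51, adjusted p = 0.999). It had a mean of 7.23 RPKM in Ezh2 loss (1.26 against control, SE 0.51, adjusted p = 0.768). By title style, mean Trim33 was 3.64 RPKM in number-first and 8.51 RPKM in number-last libraries. In the same sets mean Eng was 85.9 and 38.9 RPKM, and mean Thbs1 3.12 and 6.95 RPKM. Fkbp1a, whose protein FKBP12 binds Tgfbr1 and keeps it inactive, had means of 181 RPKM in Ezh2 loss and 259 RPKM in JAK2V617F (-0.52, SE 0.15, adjusted p = 0.242). In the same comparison Map3k7, the TGF-beta activated kinase TAK1, was at -1.58 (SE 0.61, adjusted p = 0.462).

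Of 19 genes known as TGF-beta targets in other cells, 13 were tested, and 0 of 13 passed in any genotype comparison. For title style 3 of 13 passed, beside the background of 11.0%. The AP-1 gene Junb (2.02, SE 0.27, adjusted p = 3.16e-06) and Cdkn1c, which encodes the cell cycle inhibitor p57 (2.44, SE 0.41, adjusted p = 9.03e-05), were higher in number-first libraries. Cdkn1b, which encodes the inhibitor p27, was lower (-2.65, SE 0.50, adjusted p = 0.00044). Mean Cdkn1c was 68.1 RPKM in number-first and 15.1 RPKM in number-last libraries, and mean Cdkn1b was 22.8 and 53.3 RPKM in the same sets. Cdkn1b had the smallest p of the list in double mutant minus JAK2V617F, at 2.06 (SE 0.63, adjusted p = 0.308), with title style fitted and unfitted means of 38.5 RPKM in the double mutant and 29.7 RPKM in JAK2V617F. Id2, a helix-loop-helix inhibitor repressed by TGF-beta in other cells, had means of 42.7 RPKM in Ezh2 loss and 114 RPKM in JAK2V617F (-1.63, SE 0.50, adjusted p = 0.318).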

How the data were processed

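The 10 genes, the lists and the tests were chosen with earlier results of these data known. The authors deposited 1 table of RPKM values with 26 libraries and 0 unmapped columns. The submitters' processing notes name the build GRCm38 (mm10) and the tools Subread 1.5.0, STAR 2.4.2a and SAMtools 0.1.19, with no settings. Strand use, gene lengths and read totals are not given in these sources. Groups came from the genotype label, and replicate numbers follow the order of deposition.

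RPKM values lie on whole-read steps. Library totals were taken as the most common total that fits GENCODE M21 exon lengths, and 12114 of 12116 tested genes (99.98%) then came out whole within a tolerance of 0.01. Each total rests on 11 to 52 genes whose deposited lengths match GENCODE. For all 10 members the length came instead from the read steps, as the smallest that gave whole reads in every library (2094 bases against 5042 in GENCODE for Tgfb1), and the read counts and floors depend on it. The recovered reads of the tested genes added up to 99.7% to 99.9% of each total. Estimated library totals spanned 7.8 to 29.2 M. The values log2(RPKM + 1) were modelled in limma 3.58.1 (R 4.3.3), using group means plus a title style term and robust, trended eBayes variances (median prior df 7.5), two-sided, adjusted by Benjamini-Hochberg over the 12116 genes. Values on this scale understate changes of low genes. Intervals are 95% limma intervals. The script was tested on simulated data. Named genes were all 10 members, with test values for those that passed and the 3 smallest p per comparison. Listed genes were named where they passed, at most 4 per list, or as the 2 smallest p; likeness was described for the most expressed member of each role.

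Alternatives covered the pseudocount (0.1 and 5), the filter, scaling, the title style term, the libraries fitted, array weights, marker covariates and each library left out. Added after the data were seen were voom on the recovered reads and the exclusion of the libraries numbered 24 to 27.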

Additional observations from a re-analysis of the deposited data

Results flagged for a closer look

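Of 40 sets of values (10 genes in 4 groups), examined at both ends, 5 had a highest library that stood apart from the rest of its group by more than Dixon's 95% limit. The Tgfb3 set of Ezh2 loss, with all 7 libraries at 0, could not be flagged. Chance flags a library at either end in about 1 set in 20 where values are normal. That rate does not hold for the 2 Tgfb3 sets, in which 1 library alone was above 0, and all groups but the double mutant mix title styles. Tgfb3 was at 1.99 RPKM in double mutant replicate 7 and at 2.15 RPKM in JAK2V617F replicate 1, while all other libraries of those groups were at 0. Tgfbr3 was at 17.9 RPKM in double mutant replicate 3, against 9.45 RPKM in the next library of the group. Smad2 was at 17.5 RPKM in Ezh2 loss replicate 3, against 10.2 RPKM in the next. Smad4 was at 31.6 RPKM in Ezh2 loss replicate 4, against 13.5 RPKM in the next.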

How the results depend on the processing

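The count of members that passed was 0 in each genotype comparison under every setting tried, and 2 for title style under every setting except that leaving out 1 library gave 1 to 2. Of 971 fold values of the named members under other settings, 958 kept their direction and side of the threshold, 11 turned and 2 lost their call. Without the title style term, Skil turned to 0.32 in JAK2V617F minus control, 0.0035 in Ezh2 loss minus control, -0.32 in double mutant minus JAK2V617F, -0.0039 in double mutant minus Ezh2 loss and -0.32 in the interaction, and Tgfb1 to 1.55 in double mutant minus JAK2V617F, 1.0 in double mutant minus Ezh2 loss and 3.80 in the interaction. Without the libraries numbered 24 to 27, Tgfb1 turned to 0.058 in double mutant minus control, 0.34 in double mutant minus JAK2V617F and 0.07 in the interaction. Skil for title style lost its call at -1.32 without control replicate 5 and at -1.15 without JAK2V617F replicate 1. The causes were not tested.

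The counts over all genes moved more. Without the title style term they were 1 for JAK2V617F minus control, 0 for double mutant minus control, 274 for double mutant minus JAK2V617F, 85 for double mutant minus Ezh2 loss and 215 for the interaction. In number-first libraries alone they were 0 for double mutant minus control, 0 for double mutant minus JAK2V617F, 8 for double mutant minus Ezh2 loss and 0 for Ezh2 loss minus JAK2V617F. JAK2V617F minus control gave 1 with a pseudocount of 0.1. Ezh2 loss minus control gave 2 with only the groups compared, 3 with voom and 4 without the libraries numbered 24 to 27. Double mutant minus control gave 0 with only the groups compared, 2 with no filter, 4 with a filter of 5 RPKM, 2 with quantile normalization, 4 with TPM scaling, 6 with array weights, 0 with the neutrophil covariate and 3 with voom. Double mutant minus JAK2V617F gave 7 with TPM scaling and 12 with array weights. Double mutant minus Ezh2 loss gave 1 with no filter, 3 with the neutrophil covariate and 2 without the libraries numbered 24 to 27. Ezh2 loss minus JAK2V617F gave 7 with no filter and 6 with voom. The interaction gave 1 with no filter and 1 without the libraries numbered 24 to 27. Leaving out 1 library gave 0 to 1 for JAK2V617F minus control, 0 to 1 for Ezh2 loss minus control, 0 to 6 for double mutant minus control, 3 to 8 for double mutant minus JAK2V617F, 0 to 1 for double mutant minus Ezh2 loss and 0 to 1 for the interaction.

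Title numbers 2 to 5 are shared by number-last libraries of Ezh2 loss and JAK2V617F, and their deviations correlated at 0.01, 0.02, -0.06 and 0.01, so the numbers were not taken to pair them; with a replicate block on them 1 gene and 0 members passed in Ezh2 loss minus JAK2V617F, against 12 genes and 0 members over all libraries. Counting error is large for values of a few reads, such as Tgfbr2 at 0 to 25 reads in 4 libraries. The library with 0 Tgfbr2 reads, Ezh2 loss replicate 6, had a depth of 18.2 M, and the part of depth in these values was not tested.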
